A study of Mus musculus with 9 samples.

Results

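The genes by which a neuron makes or packages its classical transmitter were described across laser-captured regions of the mediobasal hypothalamus of 9 mice. A list of 10 such genes was chosen by name and matched to the table through Ensembl identifiers, among its 13588 entries. For 8 of them a row was found: Slc17a6, Slc32a1, Gad1, Gad2, Th, Ddc, Slc18a2 and Hdc. Slc17a7 and Slc6a3, which encode the vesicular glutamate transporter VGLUT1 and the dopamine transporter, have no row in this table and were not analysed here. All 8 genes passed the filter on low values, which asked for a signal of 1 or more in 3 or more libraries.

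A neuron can release a transmitter only if it can make or take up the molecule and load it into vesicles. Glutamate neurons of the hypothalamus mostly use the vesicular transporter VGLUT2 (Slc17a6). GABA neurons make their transmitter with the glutamate decarboxylases GAD67 (Gad1) and GAD65 (Gad2) and load it with VGAT (Slc32a1). Dopamine neurons, such as those of the arcuate nucleus, use tyrosine hydroxylase (Th) and aromatic amino acid decarboxylase (Ddc), while histamine neurons of the tuberomammillary nucleus use histidine decarboxylase (Hdc). VMAT2 (Slc18a2) loads both dopamine and histamine into vesicles. In the GENCODE annotation of GRCm38, Slc17a6 lies at chr7:51622006-51671119 and Th at chr7:142892752-142931128. On chromosome 2 lie Slc32a1 (chr2:158610767-158615748), Gad1 (chr2:70553072-70602014), Gad2 (chr2:22622205-22693874) and Hdc (chr2:126593667-126619299). Ddc is at chr11:11814101-11898144 and Slc18a2 at chr19:59260896-59296012.

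All 9 mice were male, on the C57BL/6J background, and homozygous for a floxed Snord116 allele, the small nucleolar RNA cluster whose paternal copy is lost in Prader-Willi syndrome. They received an injection into the mediobasal hypothalamus at 10 to 12 weeks of age, and tissue was taken 10 weeks later. The 3 controls received AAV-GFP and the 6 others AAV-Cre, whose recombinase can delete the floxed cluster in infected cells of any type and not in a single neuron type. Each library came from the captured region of 1 mouse, on 1 slice of brain. In AAV-Cre mice the region followed the Cre staining of neighbouring sections, and controls were matched to it by region, so the nuclei captured can differ between mice. The AAV-Cre mice form subsets of 3, which the paper chose by weight gain after surgery, over 40% (obese) or under 25% (nonobese). Their labels contradict each other, since the samples titled Creobese carry a nonobese weight label and those titled Cre carry an obese one. The subsets are named here by the weight label, and every direction between them rests on that label. In bulk tissue, fewer cells of a type and less RNA per cell cannot be told apart.

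The deposited values are reads per gene scaled by library size and are called signal, close to plain library-scaled reads. The libraries held between 3929672 and 5766994 reads on listed genes, and a floor of 3 reads corresponds to a signal of 0.525 to 0.786, which covers counting error only. The table has no Snord116 entry, so the deletion itself could not be read from it. The cre entry held 0 to 5 reads in the controls. It held 5912, 37704 and 1011 reads in replicates 1, 2 and 3 of the obese subset, and 26539, 19611 and 33105 in the nonobese subset. Of 18 hypothalamic markers 16 had a row, with a summed signal of 234 to 643 in AAV-GFP mice, 347 to 747 in mice labelled obese and 293 to 537 in mice labelled nonobese. Libraries stood apart in 2 ways. Obese replicates 1 and 3 had summed signals of 2896 and 4974 for lymphocyte and plasma cell markers, against 6.02 to 73.8 in the other 7 libraries. Replicate 2 of the obese and of the nonobese subset had 646 and 783 entries at 0, against 142 to 374 elsewhere.

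A region just before a start of Slc17a6 and of Slc32a1 is shown because these transporters mark the excitatory and the inhibitory class and Slc17a6 is the gene that was called. Each is the 250 bases upstream of a RefSeq start (GRCm38.p6, plus strand), Slc17a6 at chr7:51621580-51621829 and Slc32a1 at chr2:158610508-158610757. Capitals mark a match to any of 5 short motifs searched on both strands, namely the GC box GGGCGG, the CCAAT box, the TATA box TATAAA, the homeodomain core TAATTA and the E-box CACGTG.
Slc17a6: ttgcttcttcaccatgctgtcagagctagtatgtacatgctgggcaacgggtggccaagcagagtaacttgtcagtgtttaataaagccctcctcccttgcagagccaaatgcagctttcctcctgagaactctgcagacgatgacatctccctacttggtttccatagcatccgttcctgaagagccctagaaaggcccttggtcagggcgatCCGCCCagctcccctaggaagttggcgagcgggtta
Slc32a1: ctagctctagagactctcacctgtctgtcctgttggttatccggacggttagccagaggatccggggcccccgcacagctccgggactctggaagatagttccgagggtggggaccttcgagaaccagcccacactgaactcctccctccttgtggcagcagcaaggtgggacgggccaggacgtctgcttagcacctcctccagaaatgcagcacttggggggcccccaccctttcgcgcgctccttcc
The Slc17a6 window holds 1 GC box, read on the minus strand, and the Slc32a1 window holds none of the 5 motifs. Slc17a6 has a further RefSeq start, whose window (chr7:51624387-51624636, not printed) holds no GC box and 1 homeodomain core, a motif found in 4.84% of promoters. A GC box is found in 32.7% of 32851 mouse promoters of the same length, so its presence is common, and a match is a description of letters only.

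Levels were compared between genes per kb of exon. In AAV-GFP mice Gad2 (38.4 ± 4.27 signal per kb, SD, n = 3) and Slc17a6 (34.6 ± 3.56) were the highest, and their ranges overlapped. Gad1 followed at 20.3 ± 0.678 signal per kb and Slc32a1 at 12.9 ± 0.842, each below the gene before it in 3 of 3 mice with no overlap. The amine genes were lower, with Ddc at 7.21 ± 2.17, Th at 5.75 ± 1.44, Hdc at 5.57 ± 4.77 and Slc18a2 at 4.93 ± 4.37 signal per kb, and these 4 did not differ beyond their spread. Over all 9 libraries the same order was found, but every neighbouring pair overlapped.

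**Figure D1:**
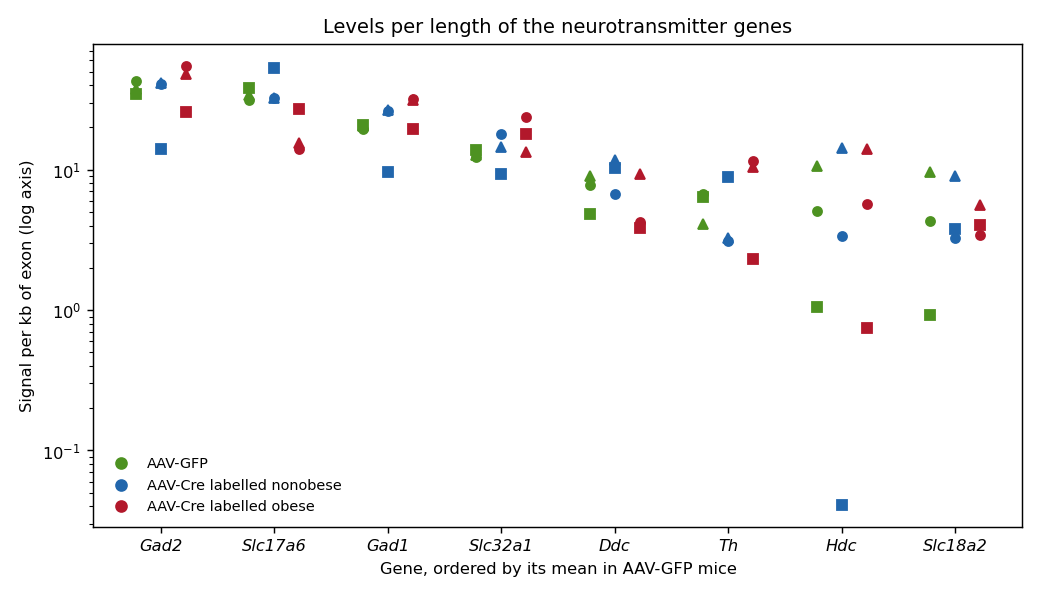
Signal per kb of exon (log axis) of the 8 genes in each library, ordered by the mean in AAV-GFP mice. Colours give the group and the shapes give replicate 1 (circle), 2 (square) and 3 (triangle). Gad2 and Slc17a6 are highest, and a single Hdc point, of replicate 2 labelled nonobese, lies far below the rest at 0.041 signal per kb.

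The question of the study's design is whether loss of Snord116 in these regions, with larger or smaller weight gain, changes hypothalamic transcripts. Slc17a6, the glutamate transporter, was the gene that differed. Its signal was 169.5, 208 and 184 in AAV-GFP replicates 1 to 3, which corresponds to 680, 1084 and 947 reads. In the obese subset it was 76.0, 146 and 84.3, and in those labelled nonobese 174, 285 and 175. All 3 mice labelled obese lay below every other mouse, and the nonobese subset overlapped AAV-GFP. The mean signal was 102 ± 38.1 (SD, n = 3) in mice labelled obese, 187 ± 19.2 in AAV-GFP and 211 ± 63.6 in mice labelled nonobese.

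Between the AAV-Cre subsets Slc17a6 was higher in the mice labelled nonobese by a log2 fold change of 1.06 (SE 0.24, limma FDR 0.0328). It was the single gene of the 8 with an FDR under 0.1 and the single one whose groups did not overlap. Of all 13506 entries tested, 0.948% were called in this comparison and 13.3% did not overlap. Without obese replicate 1, obese replicate 3 or nonobese replicate 2 the difference stayed positive (log2 0.88, 0.96 and 0.83), with limma FDRs of 0.253, 0.186 and 0.23. Without obese replicates 1 and 3 together, a setting chosen after the data were seen, it was 0.49 with an FDR of 0.506.

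Against AAV-GFP, Slc17a6 in mice labelled obese had a log2 fold change of -0.92 (SE 0.24, limma FDR 0.105), just outside the threshold. None of the 8 genes was called in this comparison by limma, where 0.555% of all entries were. An unadjusted p under 0.05 was found for 1 of the 8, against 1335 of all 13506 entries. Between groups 1 did not overlap, against 14.5% of entries. DESeq2 on the recovered reads called Slc17a6 (FDR 0.0696) and edgeR's quasi-likelihood test did not (FDR 0.218). Without obese replicate 2, which had the highest Slc17a6 of its subset, the log2 fold change was -1.21 and the FDR 0.000821, in a setting where 5.27% of all entries were called. Without obese replicates 1 and 3 it was -0.35 with an FDR of 0.661. In mice labelled nonobese the log2 fold change was 0.14 (SE 0.24, FDR 0.999).

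Other measures set apart the 2 mice with the lowest Slc17a6 signal, obese replicates 1 and 3. They were also those with the high lymphocyte sums and with microglial marker sums of 1010 and 940, against 127 to 197 elsewhere. Of the 6 AAV-Cre mice they had the fewest cre reads. No correlation of these measures with Slc17a6 was computed. Of 11 lymphocyte and plasma cell markers 8 had a row, 2 of them at 0 in all controls, and all 9 microglial markers had one. Most of the lymphocyte sums of obese replicates 1 and 3 came from the antibody chain genes Igkc (2074 and 4033) and Jchain (513 and 768). The astrocyte marker Gfap, a filament protein, was 369 and 640 in obese replicates 1 and 3 and 10.1 to 130 in the other libraries. It was picked, after its values were seen, from 7 astrocyte markers, whose sums were 2786 and 3359 in obese replicates 1 and 3. Those sums were 2199 to 2664 in AAV-GFP mice, 2552 in obese replicate 2 and 2109 to 2737 in mice labelled nonobese. Of the 7, 2 were called higher in mice labelled obese, against 0.555% of all entries called in either direction. The list's median log2 fold change was 0.22, and its most abundant gene, Slc1a2, had -0.10. Obese replicate 2, whose Slc17a6 of 146 was also below every control, had a lymphocyte sum of 73.8 and a microglial sum of 175. The lymphocyte sum was 6.02 to 13.4 in AAV-GFP mice and 33.5 to 45.9 in mice labelled nonobese. The microglial sum was 141 to 197 and 127 to 186 in the same groups. In obese replicate 2 Gfap was 130 and the cre reads were 37704. Of 16 generic neuron and synaptic vesicle genes, 1 was called lower in mice labelled obese, against 0.555% of all entries called in either direction. It was the neuronal enolase Eno2 (log2 fold change -0.65, FDR 0.0755), and the list's median log2 fold change was -0.25 against -0.04 over all entries. In that comparison 6 of the 16 had an unadjusted p under 0.05, against 1335 of all 13506 entries. Between the subsets none of the 16 was called by limma, against 0.948% of all entries. An unadjusted p under 0.05 was found for 8 of the 16, against 1539 of all 13506 entries, with a median of 0.34 against 0.02. The ventromedial hypothalamus factors Nr5a1 and Fezf1, which mark a glutamate nucleus, were at 0 and 2.02 in obese replicate 1 and at 0 and 0.465 in obese replicate 3. They were also both at 0 in AAV-GFP replicate 3, where Slc17a6 was 184, and at 0 and 3.63 in nonobese replicate 3, where it was 175. In obese replicate 2 they were at 46.1 and 49.7, and in nonobese replicate 2, which had the highest Slc17a6 (285), at 16.2 and 52.6. AAV-GFP replicates 1 and 2 had 35.2 and 48.4, and 33.9 and 39.3, and nonobese replicate 1 had 15.2 and 12.1. The part of these measures in the Slc17a6 result was not tested.

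**Figure D2:**
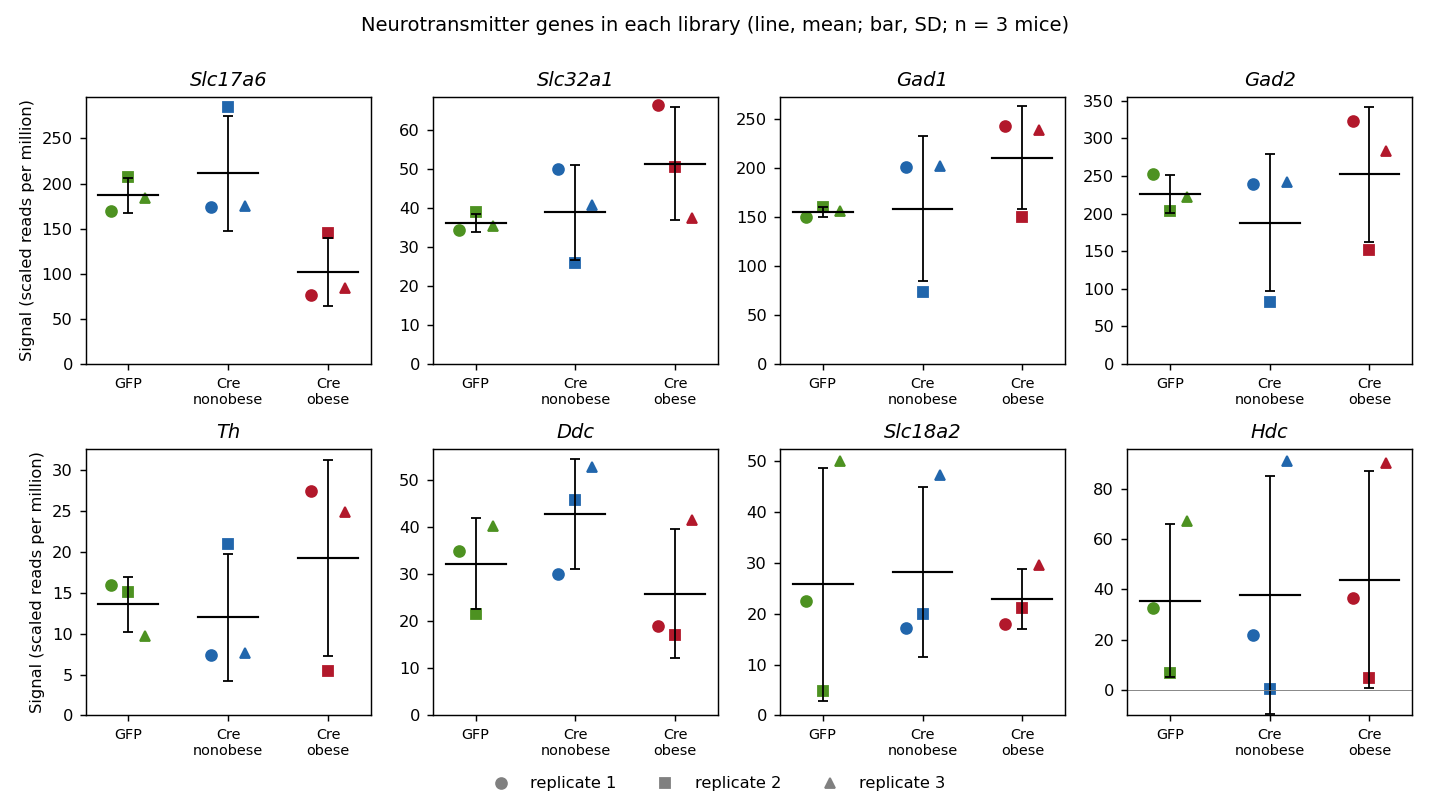
Signal of each gene in each library, with AAV-GFP in green, AAV-Cre labelled nonobese in blue and AAV-Cre labelled obese in red. Circles, squares and triangles are replicates 1, 2 and 3, the line is the mean and the bar the SD of 3 mice. For Slc17a6 the 3 mice labelled obese (76.0, 146 and 84.3) lie below all others, whereas for the other 7 genes the groups overlap.

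The GABA genes were not called in any comparison. Slc32a1, the vesicular transporter, had a signal of 34.4, 38.9 and 35.3 in AAV-GFP mice, 66.4, 50.4 and 37.4 in mice labelled obese, and 49.9, 25.9 and 40.8 in mice labelled nonobese. In the obese subset 2 of 3 mice were above all controls, while the third lay within their range. Its log2 fold change was 0.46 (SE 0.33, limma FDR 0.682) in mice labelled obese. An antisense gene, Gm14205, shares exon sequence with Slc32a1, and the strand setting of the counting is not given in the sources used here.

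Gad1, which makes most of the basal GABA pool, had a signal of 149.6, 159.9 and 156 in AAV-GFP mice. In mice labelled obese it was 242, 149.8 and 239, and in those labelled nonobese 201, 73.1 and 202. In both AAV-Cre subsets replicates 1 and 3 were above every control and replicate 2 was lowest. The log2 fold change was 0.40 (SE 0.28, limma FDR 0.668) in mice labelled obese and -0.11 (SE 0.28, FDR 0.999) in mice labelled nonobese. Without replicate 2 of both AAV-Cre subsets, a setting chosen after the data were seen, the Gad1 difference in mice labelled obese was 0.63 (limma FDR 0.0302), but that setting leaves out the lowest Gad1 library of each subset and 7.59% of all entries were called in it. Without obese replicates 1 and 3 it was -0.049 (FDR 0.975).

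Gad2, whose product sits at synaptic vesicles, had a signal of 253, 203 and 222 in AAV-GFP mice, 322, 151 and 283 in mice labelled obese, and 239.7, 82.2 and 242 in mice labelled nonobese. Replicate 2 was again the lowest of each group. The log2 fold change was 0.09 (SE 0.30, limma FDR 0.95) in mice labelled obese, -0.42 (SE 0.30, FDR 0.999) in mice labelled nonobese, and -0.51 (SE 0.30, FDR 0.534) between the subsets. The last difference depended on single libraries. Without obese replicate 2 it was -0.84 (limma FDR 0.0907), a setting in which 6.72% of all entries were called, and without nonobese replicate 2 it was 0.0065 (FDR 0.999).

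The ratio of excitatory to inhibitory transporter was formed from the same values and was not tested. Slc17a6 over Slc32a1 was 4.93, 5.34 and 5.20 in AAV-GFP mice, an SD of 4.07% of the mean. It was 1.15, 2.89 and 2.25 in mice labelled obese and 3.49, 10.98 and 4.30 in mice labelled nonobese. Every mouse labelled obese lay below every other mouse, as for Slc17a6 alone, so the ratio is no separate result. The nonobese subset held values on both sides of the controls. Slc17a6 over Gad2 was less separated, at 0.671, 1.02 and 0.828 in AAV-GFP, 0.236, 0.965 and 0.298 in mice labelled obese, and 0.726, 3.46 and 0.725 in mice labelled nonobese, so that the groups overlapped. Of these ratios Gad1 over Gad2 varied the least, between 0.592 and 0.992 over the 9 libraries.

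The genes of the dopamine route showed no called difference. Th, the rate-limiting enzyme, had a signal of 16.0, 15.1 and 9.71 in AAV-GFP mice, 27.4, 5.45 and 24.9 in mice labelled obese, and 7.35, 21.0 and 7.68 in mice labelled nonobese. The subsets spanned a wider range than the controls in both directions. Ddc, which converts DOPA to dopamine, had a signal of 34.9, 21.4 and 40.2 in AAV-GFP mice, 18.9, 17.0 and 41.6 in mice labelled obese, and 29.9, 45.8 and 52.7 in mice labelled nonobese. Its difference between the subsets was a log2 fold change of 0.78 (SE 0.39, limma FDR 0.458), with 2 of 3 mice labelled nonobese above all those labelled obese. For Th it was -0.53 (SE 0.61, FDR 0.792).

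Slc18a2, the shared amine transporter, had a signal of 22.4, 4.79 and 50.1 in AAV-GFP mice, 18.0, 21.1 and 29.5 in mice labelled obese, and 17.1, 19.9 and 47.4 in mice labelled nonobese. Both subsets lay within the range of the controls. The log2 fold changes were 0.30 (SE 0.58, limma FDR 0.907) and 0.47 (SE 0.58, FDR 0.999), and Gm29261, an antisense gene, shares exon sequence with Slc18a2.

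Hdc, the histamine enzyme, varied more between mice than between groups. Its signal was 32.7, 6.70 and 67.4 in AAV-GFP mice, 36.7, 4.77 and 90.4 in mice labelled obese, and 21.7, 0.262 and 91.1 in mice labelled nonobese, where the lowest value is 1 read and lies under the floor. In each group replicate 2 was the lowest and replicate 3 the highest. The log2 fold changes against AAV-GFP were 0.05 (SE 1.04, limma FDR 0.99) and -0.92 (SE 1.04, FDR 0.999). The SD of its log2 signal over the 9 libraries was at the 99.3 percentile of entries with a similar mean. Of 6 tuberomammillary and mammillary markers 5 had a row, with summed signals of 33.4, 11.1 and 66.2 in AAV-GFP mice, 19.3, 22.7 and 41.6 in mice labelled obese, and 26.9, 23.8 and 51.6 in mice labelled nonobese. Replicate 3 was the highest of each group in this sum too. Their part in the Hdc values was not tested.

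**Figure D3:**
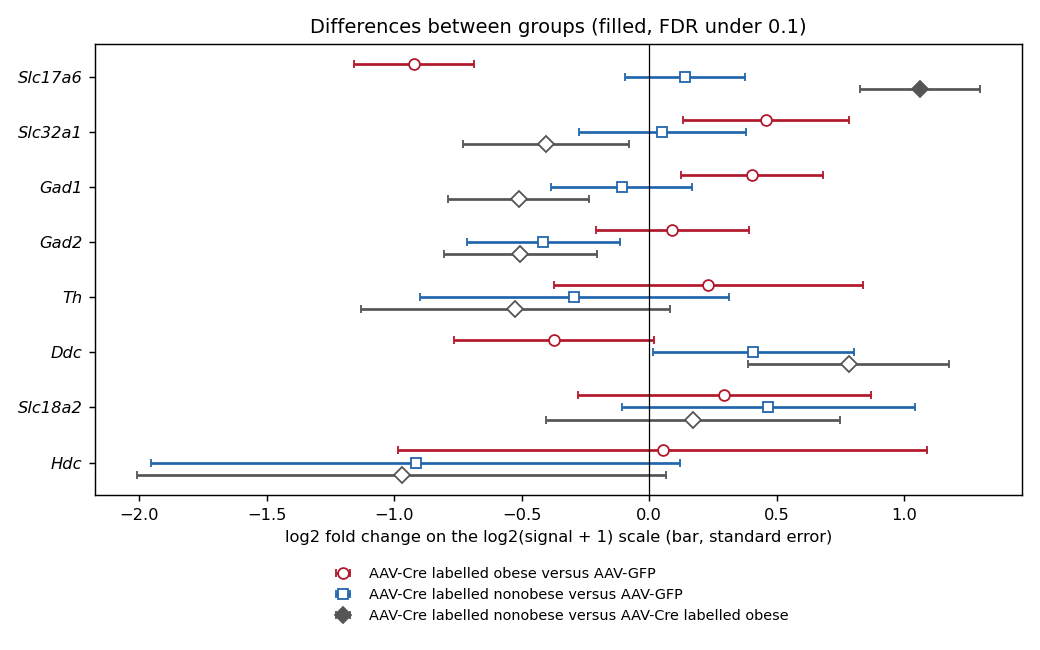
Log2 fold changes on the log2(signal + 1) scale with standard errors for the 8 genes. Red circles are mice labelled obese versus AAV-GFP, blue squares mice labelled nonobese versus AAV-GFP, and grey diamonds nonobese versus obese; filled symbols have an FDR under 0.1. The single filled symbol is Slc17a6 between the subsets (1.06), and the widest bars are those of Hdc (SE 1.04).

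In mice labelled nonobese against AAV-GFP, limma called none of the 8 genes, where 0.0148% of all entries were called. None had an unadjusted p under 0.05, against 306 of all 13506 entries. None was free of overlap, against 9.72% of entries, and edgeR and DESeq2 called none either. With all 6 AAV-Cre mice against the 3 controls the same held, with 0.0222% of entries called and 2.01% free of overlap. An unadjusted p under 0.05 was found for 424 entries there, and Slc17a6 had a log2 fold change of -0.39 (SE 0.28, limma FDR 0.999). The median log2 fold change of the 8 genes was 0.16 in mice labelled obese against -0.04 over all entries, and -0.03 in mice labelled nonobese against -0.02. Between the subsets it was -0.46 against 0.02.

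Pairs of genes were compared over the 9 libraries on the log2(signal + 1) scale, 8 pairs in all. They share a neuron type, except for Slc17a6 with Slc32a1, the excitatory and inhibitory transporters set against each other. Gad1 and Gad2 varied together (Pearson's r = 0.933, exact permutation p = 0.000648, adjusted 0.00518; Spearman's rho = 0.733, exact p = 0.0311, adjusted 0.193). Without the 2 libraries farthest from the median of Gad1, nonobese replicate 2 and obese replicate 1, r was 0.647, so part of the relation rests on them. After removal of group means r was 0.968. Slc17a6 and Slc32a1 went in opposite directions (r = -0.676, exact permutation p = 0.0459, adjusted 0.122; rho = -0.583, exact p = 0.108), which did not pass correction. Without obese replicates 1 and 3 r was -0.826, and after removal of group means -0.472.

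Hdc and Slc18a2 gave r = 0.543 (exact permutation p = 0.127, adjusted 0.17; rho = 0.65, exact p = 0.0666), and Ddc and Slc18a2 gave r = 0.615 (exact p = 0.0705, adjusted 0.141; rho = 0.567, exact p = 0.121). Without the 2 libraries farthest from the median of the first gene these were 0.941 and 0.867. After removal of the means of each replicate number the r of Hdc and Slc18a2 turned to -0.534 and that of Ddc and Slc18a2 was 0.274, and neither pair had passed correction. Th did not vary with the gene of the next step, Ddc (r = 0.0757, exact permutation p = 0.842; rho = 0.167, exact p = 0.678). The remaining pairs were Gad1 with Slc32a1 (r = 0.724, adjusted exact p = 0.122), Gad2 with Slc32a1 (r = 0.593, adjusted exact p = 0.17) and Th with Slc18a2 (r = -0.223, adjusted exact p = 0.676).

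**Figure D4:**
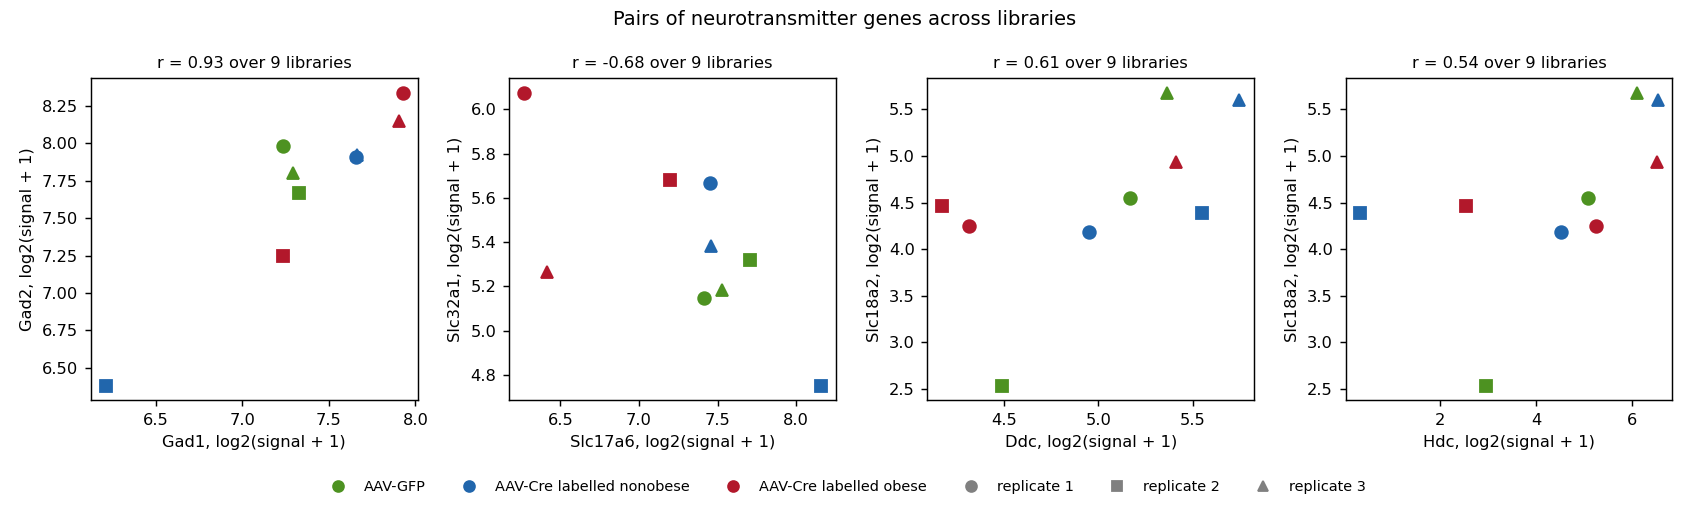
Log2(signal + 1) of 4 pairs of genes, 1 point per library, with colours for the groups and shapes for replicates 1 (circle), 2 (square) and 3 (triangle). Gad1 and Gad2 lie along a line (r = 0.93) with nonobese replicate 2 at its lower end, Slc17a6 and Slc32a1 run opposite (r = -0.68), and the squares of Hdc lie at the left of its panel.

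The entries most like each gene over the 9 libraries were sought among 11894 with a mean signal of at least 5, and the r values are given as descriptions. For Slc17a6 they were Morn1 (r = 0.978), Trak2 (0.977) and Jph4 (0.968), and for Slc32a1 Syt4 (0.953), Scaf4 (0.946) and Zfp553 (0.929). For Gad1 they were Ism1 (0.967), Rhoa (0.960) and Rgs19 (0.956), and for Gad2 Donson (0.970), Stmn4 (0.967) and Itpr3 (0.965). Th was closest to Mgat1 (0.953), Ifi203 (0.933) and Gbp9 (0.932), and the last pair are interferon-inducible genes. Ddc was closest to Arl2 (0.963), Slc27a2 (0.927) and Prkcq (0.918), Slc18a2 to Nxph1 (0.924), A530040E14Rik (0.879) and Ret (0.877), and Hdc to Tubb3 (0.987), Esrrg (0.973) and Col11a1 (0.967). With 9 libraries and so many entries, high values arise readily, and 60 entries had r over 0.9 with Slc17a6 against 1 with Slc18a2.

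Other genes of the transmitter routes differed little between groups. Of 11 tested genes of glutamate handling, 5 of GABA handling, 9 of catecholamine cofactors and breakdown, 4 of histamine breakdown and receptors and 4 of other transmitters, none was called by limma in any of the 4 comparisons. An unadjusted p under 0.05 was found for 2 of these genes with the obese subset against AAV-GFP and for 1 in each of the other comparisons. Of all 13506 entries, 1335 had such a p with the obese subset and 306 with the nonobese subset. With all AAV-Cre mice 424 had one, and between the subsets 1539. The most abundant were the astrocyte glutamate transporters Slc1a2 (log2 fold change -0.10 in mice labelled obese, limma FDR 0.861) and Slc1a3 (0.19, FDR 0.72), the GABA transporter Slc6a11 (-0.22, FDR 0.738) and the GABA transaminase Abat (-0.19, FDR 0.771). In the lists of catecholamine cofactors and breakdown, of histamine and of other transmitters they were Qdpr (-0.35, FDR 0.747), Maoa (0.15, FDR 0.922), Hrh3 (-0.69, FDR 0.592), Aldh7a1 (-0.01, FDR 0.994), Ache (-0.03, FDR 0.983) and Slc6a9 (0.09, FDR 0.97). Dbh, Pnmt, Tph2, Slc6a2, Slc6a4, Slc6a5 and Slc18a3 had no row.

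Of 8 tested genes in a list of dopamine receptors and dopamine neuron factors, which also held the prolactin receptor Prlr, only Prlr was called. Its signal was 114, 79.7 and 68.2 in AAV-GFP mice, 36.4, 33.1 and 12.8 in mice labelled obese, and 65.1, 122 and 50.1 in mice labelled nonobese. All 3 mice labelled obese lay below every other mouse, with a log2 fold change of -1.73 against AAV-GFP (SE 0.36, limma FDR 0.0332). In that comparison 0.555% of all entries were called and 14.5% did not overlap. Prlr was higher in mice labelled nonobese than in those labelled obese by 1.52 (SE 0.36, FDR 0.0569), where 0.948% were called and 13.3% did not overlap. The dopamine receptor Drd2 had -2.56 in mice labelled obese (SE 0.85, limma FDR 0.251) and was not called. Its signal was 7.48, 5.36 and 11.1 in AAV-GFP mice and 8.40, 5.50 and 1.28 in mice labelled nonobese. In mice labelled obese it was 1.57, 0.227 and 0, the last 2 under the floor. An unadjusted p under 0.05 was found for 2 of the 8 genes with the obese subset and 3 between the subsets, against 1335 and 1539 of all 13506 entries. Dlx1, an interneuron factor and the most abundant gene of that list after Prlr, had 0.33 (FDR 0.854). The 2 most abundant of the generic neuron genes, Snap25 and Map2, had -0.23 (FDR 0.676) and -0.15 (FDR 0.821) in mice labelled obese.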

How the data were processed

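RNA of laser-captured mediobasal hypothalamus was sequenced from 9 mice, 3 per group. Per the paper's methods and the submitters' processing notes, which name CASAVA 1.7, TopHat2 2.0.11, HTSeq, edgeR and limma, reads were mapped to GRCm38. The authors deposited signal, each gene's reads over a library size that they had scaled, which sums to between 954378 and 1046542 per library. In each library 100% of values were whole multiples of a single read (tolerance 0.01), so reads were recovered for count tests. No entry had fewer than 50 reads over all libraries.

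Differences in log2(signal + 1) were tested by limma 3.58.1 under R 4.3.3 with a variance trend, fitting the 3 groups together except for all AAV-Cre mice against AAV-GFP, which was fitted as 6 mice against 3, and adjusted by Benjamini-Hochberg over the 13506 entries whose signal reached 1 in 3 or more libraries. A call is an FDR under 0.1. CPM had been assumed when the design was written, and its test was kept. Of the 4 comparisons, 3 share the AAV-GFP controls (either AAV-Cre subset, or both together), and the last sets the subsets side by side. Separate mice are the replicates. Correlations used exact permutation tests over pairings, 2-sided. On the recovered reads edgeR 4.0.16 and DESeq2 1.42.0 were alternatives, and for mice labelled obese against AAV-GFP edgeR's quasi-likelihood test called 93 entries against 75 by limma. The procedure was tested on simulated data.

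Genes named are the 10 chosen genes, from each pathway list the called genes and the 2 most abundant, and the 3 entries most correlated with each chosen gene. Gfap, Nr5a1, Fezf1, Igkc, Jchain and Drd2 were named after their values were seen. The members and lists were chosen with earlier results of these data known. Symbols were matched for 13446 of 13586 Ensembl identifiers with the GENCODE annotation of GRCm38, and promoters are from RefSeq. Alternatives were other pseudocounts, filters, centring, no variance trend, the replicate block, fits of only the groups compared, count tests, and leaving out each mouse. Further settings, without obese replicates 1 and 3 and without replicate 2 of both AAV-Cre subsets, and a test of the replicate number were added after the data were seen.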

Additional observations from a re-analysis of the deposited data

Results flagged for a closer look

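Slc17a6 differed between the AAV-Cre subsets in a test of the difference itself. It was higher in the mice labelled nonobese than in those labelled obese by a log2 fold change of 1.06 (limma FDR 0.0328), in 3 of 3 mice. The direction depends on the weight label, which the sample titles contradict. In groups of 3 mice single outlying samples were not tested.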

How the results depend on the processing

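With 3 mice a group, single libraries decided several values, and low reads limit Th, Slc18a2 and Hdc. Of 704 alternative log2 fold changes of the 8 genes 622 kept direction and side of the threshold, 8 became called, 6 lost a call and 68 changed sign. Where no cause is given below, the cause was not tested.

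For mice labelled obese against AAV-GFP 1 of the 8 genes instead of 0, Slc17a6, was called with a pseudocount of 5 (FDR 0.0719), DESeq2 (0.0696), the replicate block (0.0118), without obese replicate 2 (0.000821) and without nonobese replicate 2 (0.0729), so that leaving out a mouse gave 0 to 1. Without replicate 2 of both AAV-Cre subsets 2 were called, Slc17a6 and Gad1. Between the subsets the call of Slc17a6 was lost (0 of 8) with no variance trend, with only the 2 groups in the fit (FDR 0.103), and without obese replicates 1 and 3, and leaving out a mouse gave 0 to 2.

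Over all entries, 75 were called for mice labelled obese against AAV-GFP, and 34 and 143 with pseudocounts of 0.1 and 5, 5 with no variance trend, 200 with the replicate block, 260 by edgeR's likelihood ratio test, 275 by DESeq2, 49 with only the 2 groups, 44 without obese replicates 1 and 3, 1020 without replicate 2 of both AAV-Cre subsets, and 0.0594% to 5.27% of entries without a mouse. Between the subsets 128 were called, and in the same order 70, 214, 15, 271, 398, 389, 66, 72, 714, and 2 to 906. For mice labelled nonobese 2 were called, with 1 (pseudocount of 0.1), 6 (likelihood ratio), 4 (without replicate 2 of both AAV-Cre subsets) and 1 to 3 without a mouse. For all AAV-Cre mice 3 were called, with 7 (likelihood ratio), 9 (DESeq2), 6 (average of the subsets) and 1 to 4.

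Changes of sign concerned log2 fold changes that were not called. For mice labelled obese they were, without obese replicates 1 and 3, Gad1 -0.049, Gad2 -0.57, Th -1.15 and Hdc -2.18, Hdc -0.012 after centring, and Slc18a2 -0.17, -0.17 and -0.15 by the count tests (edgeR quasi-likelihood, edgeR likelihood ratio, DESeq2). For mice labelled nonobese the same tests gave Gad1 0.035, 0.034 and 0.032 and Hdc 0.087, 0.084 and 0.080, and without replicate 2 of both subsets Slc17a6 was -0.094, Gad1 0.38, Gad2 0.098 and Hdc 0.81. For all AAV-Cre mice the tests gave Th 0.20, 0.20 and 0.22, Slc18a2 -0.015, -0.015 and -0.0078, and Hdc 0.20, 0.20 and 0.21, a pseudocount of 5 Th 0.016, centring Ddc -0.017, removal of obese replicates 1 and 3 Slc17a6 0.017 and Gad1 -0.093, and removal of both replicates 2 Gad2 0.26, Th 0.087 and Hdc 0.99. Between the subsets, without obese replicates 1 and 3, Gad2 was 0.16, Th 0.86 and Hdc 1.26. The r of Th and Ddc was -0.475 without the 2 libraries farthest from the median, and that of Hdc and Slc18a2 -0.534 after removal of the means of each replicate number.

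Leaving out a mouse gave, for mice labelled obese, Gad2 -0.12 to 0.42, Th -0.15 to 0.92, Slc18a2 -0.56 to 1.01 and Hdc -0.83 to 1.17. For mice labelled nonobese it gave Slc17a6 -0.094 to 0.26, Slc32a1 -0.15 to 0.31, Gad1 -0.35 to 0.38, Gad2 -0.67 to 0.098, Slc18a2 -0.39 to 1.18 and Hdc -2.28 to 0.81. For all AAV-Cre mice it gave Gad2 -0.30 to 0.094, Th -0.24 to 0.19, Ddc -0.24 to 0.20, Slc18a2 -0.48 to 1.09 and Hdc -1.31 to 0.36. Between the subsets it gave Gad2 -0.84 to 0.0065, Slc18a2 -0.26 to 0.44 and Hdc -2.34 to 0.76.

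Mice that share a replicate number are different animals. Their deviations from group means correlated between -0.0199 and 0.0897, 0 of 9 pairs over 0.1. In 9 comparisons a library was set against the libraries of another group. Its own number gave the highest r in 5 of them, never for replicate 1. These values over all entries were low, and the numbers were not taken to pair the mice. Whether the numbers follow the matching of controls by region was not tested. In the fit with the replicate block the subset difference of Slc17a6 had an FDR of 0.00168. A test of the number itself, added after the data were seen, called 59 of 13506 entries (0.437%), with Hdc at an FDR of 5.9e-06 and Gad2 at 0.0227.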
